A study of Mus musculus with 15 samples.

Results

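Poln encodes DNA polymerase nu, and its transcript was followed here in CT26 cells, a mouse colon carcinoma cell line, together with 7 genes of related DNA polymerases and helicases and with Haus3, a gene whose exons overlap those of Poln. These 9 genes were taken from the 34432 genes in the deposited tables. Poln was chosen for its rise in the cells with less or inhibited PRMT1, so its differences from the control cells are given as a description, without a test. Helq, Polq, Polh, Polk, Poli, Rev1 and Rev3l were chosen by family, and Haus3 by the shared exon sequence.

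RNA was sequenced in 2 experiments that asked which genes respond when PRMT1, the main enzyme of asymmetric arginine dimethylation, is depleted or inhibited. In the first, 3 libraries came from cells with a control hairpin (shControl) and 3 from cells with a Prmt1 hairpin (shPrmt1). The shPrmt1 line was a stable CT26 line in which doxycycline (DOX) turns on the hairpin, given DOX for 3 days, and whether the shControl cells were given DOX is not stated. In the second, CT26 cells labelled as wild type received vehicle alone, MS023 at 6 µM or GSK3368715 at 6 µM for 48 hours, with 3 libraries for each. Both compounds inhibit type I arginine methyltransferases, which include PRMT1. The study's methods speak of independent experiments or biological replicates for its data in general, and no source says it of these libraries, so p-values measure the spread between these libraries, which may be technical.

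The libraries of the knockdown experiment held 17284091 to 29233738 reads on genes, and those of the inhibitor experiment 40119305 to 93697833. Values are normalized counts, meaning gene counts divided by the library's DESeq2 size factor, unless CPM is named, in which each library is scaled to the same total of reads on genes. Prmt1 fell by 3.00 on the log2 scale in shPrmt1 cells, to 12.5% of the control mean (adjusted p = 3.8e-07, limma), and was not called under MS023 (adjusted p = 0.35, limma) or GSK3368715 (adjusted p = 0.91, limma). Among markers of other cell types, all 8 immune genes were under 1 CPM in every group and their sum was 0.124 to 0.753 CPM per library. Of 8 epithelial markers, 6 were under 1 CPM in every group and Epcam was at 0 throughout, although the cells are labelled as colon tumor cells. These 8 summed to 20.8 to 38 CPM per library. The 8 mesenchymal markers, with 1 under 1 CPM in each group, summed to 5480 to 7680 CPM.

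Translesion synthesis lets a cell finish copying a damaged template. Replicative polymerases stall at a lesion, and polymerases with a wider active site and lower fidelity take over at the sliding clamp PCNA, insert a base across from the lesion and extend from it. Polymerases nu and theta belong to another polymerase family, the A family. These polymerases and the helicase HELQ act in the repair of crosslinks and double-strand breaks.

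Poln and Haus3 lie on the minus strand of chromosome 5 in mm10, Poln at chr5:34007179-34169448 and Haus3 at chr5:34153880-34169527. By the GENCODE models, Poln spans 162.3 kb and Haus3 15.6 kb, and Haus3 overlaps the 5′ part of Poln and starts 79 bases upstream of it. The RefSeq starts are in the reverse order, that of Poln lying 102 bases upstream of that of Haus3. HAUS3 is a subunit of augmin, the complex that starts new microtubules from existing ones in the spindle. In GENCODE, the principal transcript of Poln has 25 exons in 2897 bases, and that of Haus3 has 5 exons in 2073 bases. The 2 genes share 108 exon bases in 2 runs, chr5:34169390-34169448 and chr5:34168395-34168443, which is 1.99% of the exon bases of Poln and 2.79% of those of Haus3. The start codon is in exon 2 of both transcripts, so the shared first exon is 5′ UTR. That exon is then joined over an intron of 19528 bases in the Poln transcript and of 946 bases in the Haus3 transcript.

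The splice junction after the shared exon tells these 2 principal transcripts apart. The 15 bases on each side of it are shown 5′ to 3′ from the GENCODE transcript sequences for mm10, with exon 2 in capitals.
Poln: tgcggctttcctgagGACTTTATGAAAATG
Haus3: tgcggctttcctgagGAAAACACATTATAG
The 15 bases before the junction are the same, and a read confined to them could come from either transcript. Of 8 annotated Poln transcripts, 3 start in the shared first exon and 5 elsewhere in the gene. The other shared run lies at the start of Haus3 exon 2, and whether another Poln transcript carries the junction shown for Haus3 was not tested. The deposited values are per gene and do not say which transcripts were counted.

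**Figure D1:**
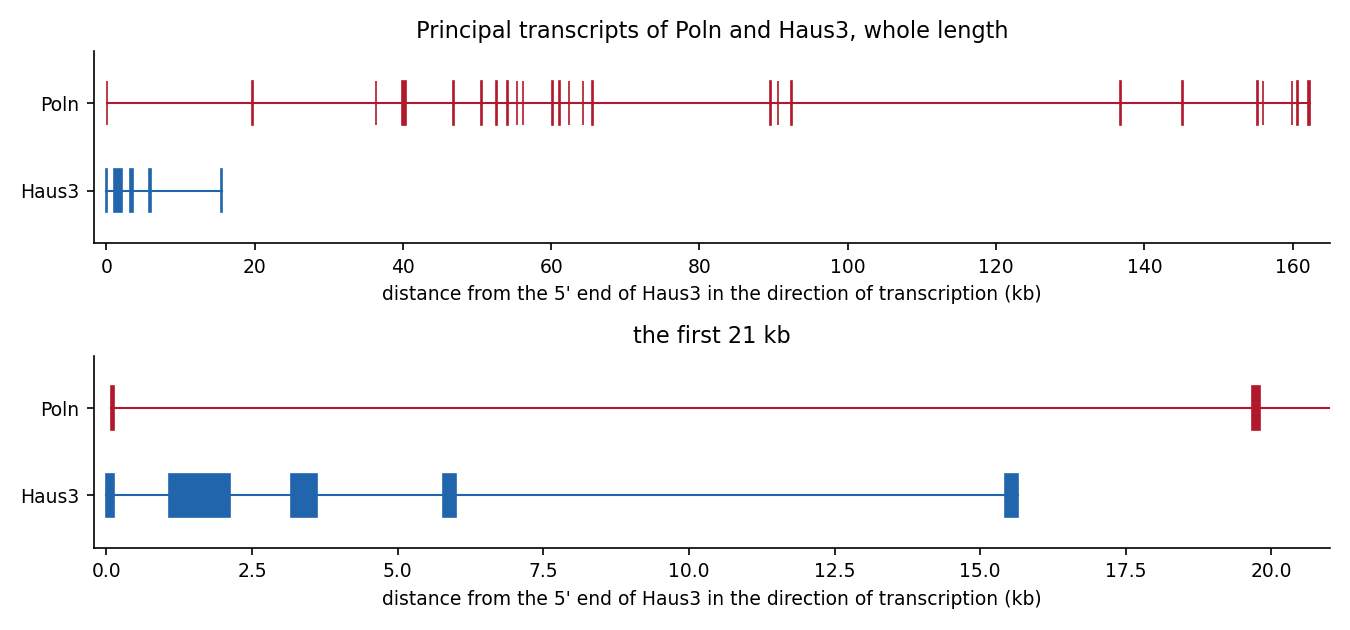
Exons (boxes) of the principal Poln and Haus3 transcripts against distance in kb from the 5′ end of Haus3 in the direction of transcription, over the whole length (top) and the first 21 kb (bottom). Exon 1 of Poln lies within exon 1 of Haus3, and exon 2 of Poln lies beyond the last exon of Haus3.

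Poln was sparse in shControl cells and many times as abundant in shPrmt1 cells. In shControl libraries its normalized counts were 13.2, 11.5 and 13.3, from 15, 16 and 12 reads. It reached 224, 193 and 251 in shPrmt1 libraries, from 196, 159 and 246 reads. The groups stood far apart, with the lowest shPrmt1 library well above the highest control. The mean went from 12.7 ± 0.992 to 223 ± 29.2 (SD, n = 3 each), a ratio of 17.6 and a log2 fold change of 4.03 ± 0.18 (SE).

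In the inhibitor experiment Poln started from a higher level. It had 131, 163 and 160 normalized counts with vehicle, 649, 615 and 764 with MS023, and 676, 629 and 494 with GSK3368715. Each inhibitor library was above every vehicle library, and the inhibitor groups overlapped each other. The mean was 151 ± 17.8 with vehicle, 676 ± 78.5 with MS023 and 600 ± 94.8 with GSK3368715 (SD, n = 3 each). The ratios to vehicle were 4.47 and 3.97, and the log2 fold changes 2.15 ± 0.14 and 1.97 ± 0.14 (SE). These comparisons share their vehicle libraries. Between the inhibitors, the log2 difference of GSK3368715 minus MS023 was -0.18, with a 95% interval of -0.49 to 0.13 (adjusted p = 0.64, limma), so a difference anywhere in this range was not resolved with 3 libraries per group.

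As CPM, the treated groups ended at similar levels although the controls did not. Poln had a mean of 0.599 CPM in shControl and 2.52 CPM in vehicle libraries, 4.21 times as much, and 10.8 CPM in shPrmt1, 11.5 CPM in MS023 and 10.1 CPM in GSK3368715 libraries. The 2 experiments were normalized separately and differ in cells and depth, so these levels are set side by side without a test.

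**Figure D2:**
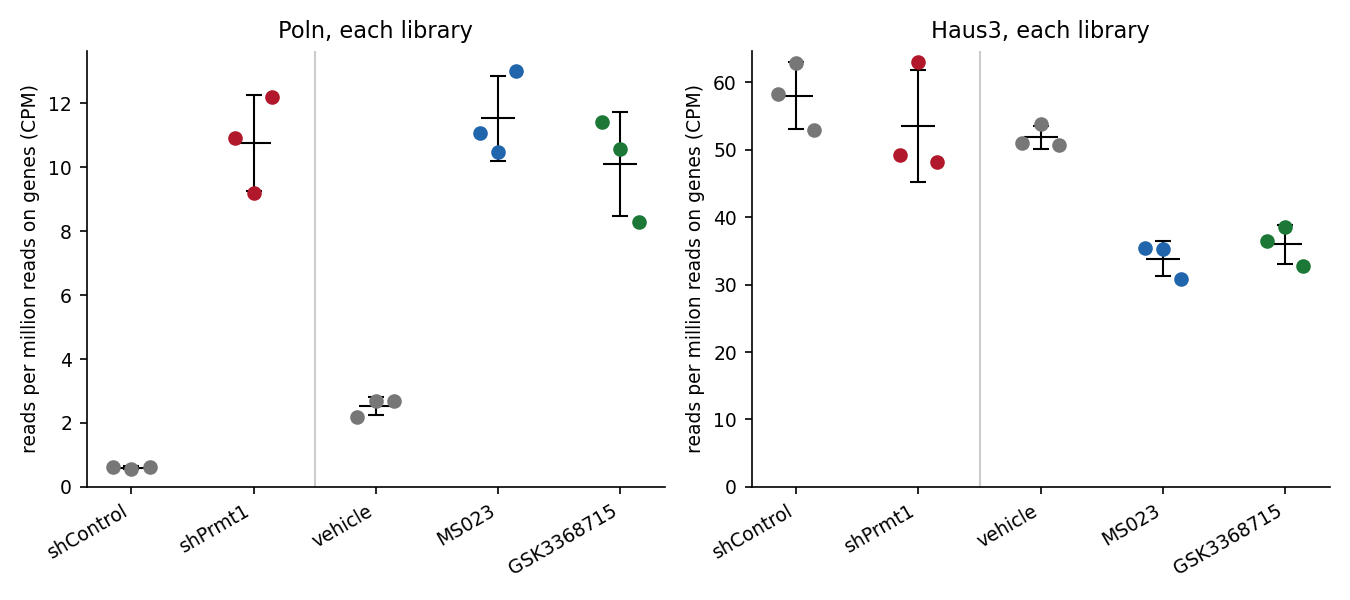
Poln (left) and Haus3 (right) in CPM on a linear axis from 0 for each library (points) of the 5 groups, with the mean and SD (black bars, n = 3), the knockdown experiment left of the grey line. Poln is at 0.599 CPM in shControl, 2.52 in vehicle and 10.1 to 11.5 on average in the 3 treated groups, while Haus3 is lower in both inhibitor groups than in vehicle.

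Markers of the interferon response rose beside Poln in each experiment. Poln was chosen for its rise, and this list with earlier results of these data known, so their joint rise is a description only. All 10 genes were called higher in shPrmt1 cells and under MS023, beside 7.5% and 13.7% of all genes. Under GSK3368715, 9 were called higher, beside 5.16% of all genes, and Usp18 was at a log2 fold change of 0.51 (adjusted p = 0.054, limma). In shPrmt1 cells the largest of these changes were in Gbp2, a guanylate-binding protein, at 1.86, Irf7, a transcription factor of the response, at 1.80 and Rsad2, the antiviral viperin, at 1.68 (log2). Under MS023 they were in Gbp2 at 1.52, Ifit3 at 1.06 and Rsad2 at 0.94, and under GSK3368715 in Gbp2 at 1.34, Cxcl10, a chemokine, at 1.08 and Ifit3 at 1.07. The median log2 fold change of the 10 genes was 1.34, 0.78 and 0.76 in the 3 comparisons, where that of all genes tested was within 0.01 of 0.

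The levels of these markers and of Poln did not have the same order across groups. The markers summed to 180 to 189 CPM in shControl, 454 to 487 in shPrmt1, 1170 to 1730 in vehicle, 2440 to 2480 in MS023 and 2140 to 2560 in GSK3368715 libraries. Their sum was therefore lower in shPrmt1 than in vehicle cells, whereas Poln was 4.28 times as high in shPrmt1 as in vehicle cells on the CPM scale. That contrast is between experiments that were normalized separately and differ in cells and depth, so it is given without a test. Within each experiment, the marker sum and Poln were both higher in treated than in control libraries. The part of the interferon response in the level of Poln was not tested.

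The genes whose pattern was most like that of Poln were looked for among 10289 genes, on log2 values less the mean of the experiment's own controls. The 5 with the largest Pearson r over the 15 libraries were Cmpk2, a mitochondrial nucleotide kinase, with r = 0.986, Oas2, an oligoadenylate synthetase, with 0.986, Igtp, a GTPase, with 0.981, Parp9, with 0.981, and Gbp7, with 0.981. The libraries share groups and controls, so r mostly reflects the group means and is given without a p. Poln had larger log2 fold changes than all 5, which ranged from 0.84 to 2.16 in shPrmt1, 0.46 to 1.18 in MS023 and 0.41 to 1.01 in GSK3368715 cells. Within the 6 knockdown libraries alone r was 0.990 to 0.998, and within the 9 inhibitor libraries 0.951 to 0.958. The 5 genes were picked on these same libraries, so these values are no separate check and also mostly reflect the group means. Among the other members, r with Poln was -0.76 for Poli, 0.57 for Polk, 0.49 for Rev1 and -0.41 for Haus3, and between 0.03 and 0.25 for the rest.

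Haus3 fell under both inhibitors while Poln was higher. It had 3037, 3263 and 3035 normalized counts with vehicle, 2072, 2069 and 1812 with MS023, and 2160, 2294 and 1959 with GSK3368715. Every inhibitor library was below every vehicle library. Haus3 fell by 0.65 ± 0.08 on the log2 scale under MS023 (SE, adjusted p = 0.00026, limma), to 0.638 of its mean, and by 0.54 ± 0.08 under GSK3368715 (adjusted p = 0.0027, limma), to 0.687 of it. The difference between the inhibitors was 0.11, with a 95% interval of -0.06 to 0.28 (adjusted p = 0.60, limma).

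In shPrmt1 cells a fall of Haus3 was not called. It had 1241, 1323 and 1118 normalized counts in shControl and 1009, 1321 and 993 in shPrmt1 libraries, and the groups overlapped through shPrmt1 replicate 2. The log2 fold change was -0.16, with a 95% interval of -0.43 to 0.12 (adjusted p = 0.41, limma). Without that library it was -0.29 and called (adjusted p = 0.028, limma).

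Because the 2 genes share exon bases, they were also read together. Poln made up 1.03% ± 0.156 of the counts of the pair in shControl and 17.0% ± 3.85 in shPrmt1 libraries (SD, n = 3 each). The share was 4.63% ± 0.456 with vehicle, 25.5% ± 3.67 with MS023 and 21.8% ± 1.87 with GSK3368715. In shPrmt1 cells Poln gained 210 normalized counts and the mean of Haus3 was 119 lower, so the sum was 90.9 higher. Under MS023 Poln gained 525 and Haus3 fell by 1128, and under GSK3368715 Poln gained 449 and Haus3 fell by 974. The summed counts of the pair fell by 603 under MS023 and fell by 526 under GSK3368715, with log2 fold changes of -0.29 and -0.26. The sum contains Poln, so it is described without a test. Under either inhibitor the fall of Haus3 was thus larger, in normalized counts, than the gain of Poln. How the counting divided reads of the shared bases was not tested.

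The genes most like Haus3 by the same measure were Timm8a1, a mitochondrial import chaperone, with r = 0.977, Sub1, a transcriptional coactivator, with 0.972, and Btbd1 with 0.966.

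The log2 fold changes of the 8 members other than Poln lay between -0.65 and 0.26 in the 3 comparisons with controls. Of the 8, none was called in shPrmt1 cells by limma, edgeR or DESeq2, with 2 at an unadjusted p under 0.05, Polk and Poli, where 14.7% of 11485 genes tested were called, 7.5% higher and 7.17% lower. Under MS023, Haus3 and Poli were called lower and none was called higher, where 27.9% of 13014 genes were called, 13.7% higher and 14.1% lower. Under GSK3368715, Haus3 was called lower, where 9.64% were called, 5.16% higher and 4.47% lower. The counts under the inhibitors, 2 and 1 of 8, are near the shares of all genes. Between the inhibitors none was called by limma, edgeR or DESeq2, and none was at an unadjusted p under 0.05, where 0.515% of all genes were called, 0.315% higher and 0.2% lower. The median log2 fold change of the 8 was 0.04, -0.01 and 0.01 in the 3 comparisons with controls. All 9 members had at least 10 normalized counts in every library and passed the filter.

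**Figure D3:**
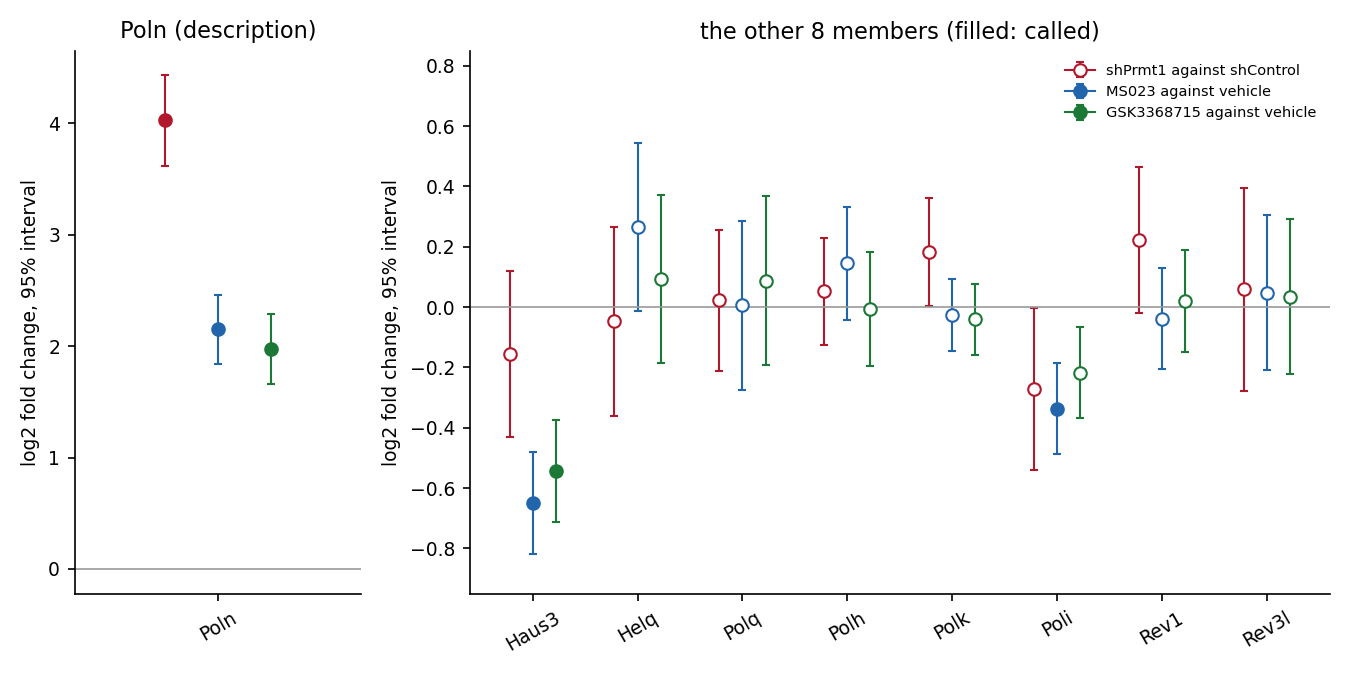
Log2 fold change with its 95% interval (bars) of Poln (left) and of the other 8 members (right, on a narrower scale) in shPrmt1 against shControl and in each inhibitor against vehicle, n = 3 libraries per group, with filled points on the right for genes called at an adjusted p under 0.05. Poln is at 4.03, 2.15 and 1.97, Haus3 at -0.65 and -0.54 under the inhibitors, and the intervals of Polq, Polh and Rev3l span 0 in every comparison. The intervals of Poln describe the spread between libraries and are no test, since Poln was chosen for its rise in these comparisons.

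Poli, which encodes the Y-family polymerase iota, was lower in the treated libraries of every comparison and called in 1 of them. It had 899, 857 and 944 normalized counts with vehicle and 716, 710 and 710 with MS023, without overlap. It fell by 0.34 ± 0.07 on the log2 scale (SE, adjusted p = 0.0048, limma), to 0.791 of its mean. With GSK3368715 it had 742, 785 and 796, also below every vehicle library, and the log2 fold change was -0.22, with a 95% interval of -0.37 to -0.07 (adjusted p = 0.072, limma). In shPrmt1 cells it went from 269, 239 and 214 to 187, 211 and 197, without overlap, with a log2 fold change of -0.27 (interval -0.54 to 0.00, adjusted p = 0.15, limma). The difference between the inhibitors was 0.12 (interval -0.03 to 0.27, adjusted p = 0.50, limma).

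Polk and Rev1 shifted slightly in shPrmt1 cells, without passing the test. Polk, the Y-family polymerase kappa, which copies past bulky adducts, had 703, 759 and 734 normalized counts in shControl and 822, 887 and 786 in shPrmt1 libraries, without overlap (log2 fold change 0.18, adjusted p = 0.15, limma). Rev1, a deoxycytidyl transferase that also serves as a scaffold for the other Y-family enzymes, had 826, 852 and 763 in shControl and 871, 1109 and 883 in shPrmt1 libraries, without overlap (log2 fold change 0.22, adjusted p = 0.19, limma). Under the inhibitors Polk was at -0.03 and -0.04 and Rev1 at -0.04 and 0.02, with intervals that span 0.

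Polh, the polymerase that copies accurately past ultraviolet-induced thymine dimers, had log2 fold changes of 0.05 in shPrmt1, 0.14 in MS023 and -0.01 in GSK3368715 cells. Under MS023 it was called when vehicle replicate 2 was left out (0.24, adjusted p = 0.028, limma) and not otherwise (adjusted p = 0.23, limma). Rev3l, the catalytic subunit of polymerase zeta, which extends from a base inserted across from a lesion, was at 0.06, 0.05 and 0.03. Its vehicle libraries ranged from 2511 to 3719 normalized counts, and the 95% intervals under the inhibitors ran from -0.22 to 0.30 on the log2 scale. Polq, the A-family polymerase of theta-mediated end joining, was at 0.02, 0.01 and 0.09, with 1612 to 2322 normalized counts in vehicle libraries.

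Helq, the helicase related to that of Polq, had 1150, 1058 and 1195 normalized counts with vehicle and 1418, 1408 and 1264 with MS023, without overlap. The log2 fold change was 0.26, with a 95% interval of -0.01 to 0.54 (adjusted p = 0.14, limma), and it was called when GSK3368715 replicate 1, at 1527 normalized counts, was left out of the fit (adjusted p = 0.030, limma) and when only the vehicle and MS023 libraries were fitted (adjusted p = 0.035, limma). With GSK3368715 Helq was at 0.09 and in shPrmt1 cells at -0.05. The change of Poln was larger than those of its family, as the rule that chose it requires: the log2 fold changes of the other 7 polymerase and helicase genes lay between -0.34 and 0.26 in the 3 comparisons.

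Per kb of the principal transcript, Haus3 and Polh had the highest levels among the 9 and Poln the lowest in both control groups. In shControl cells Poln was at 0.207 ± 0.0154 CPM per kb, and the next lowest, Poli, at 4.09 ± 0.436 (SD, n = 3 each). In vehicle cells Poln was at 0.869 ± 0.0967 CPM per kb, below Polq at 3.84 ± 0.659. In treated cells Poln reached the level of its neighbours in this order. It was at 3.72 ± 0.518 CPM per kb in shPrmt1, where its libraries overlapped those of Poli at 3.45 ± 0.166. It was at 3.98 ± 0.459 in MS023, overlapping Polq at 3.92 ± 0.338, and at 3.49 ± 0.563 in GSK3368715, overlapping Polq at 4.10 ± 0.454. Haus3 led in every group, at 28.0 ± 2.37 in shControl and 25 ± 0.844 in vehicle libraries, but in MS023 libraries, at 16.3 ± 1.24, it overlapped Polh at 16.03 ± 0.834.

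Regulators steer translesion synthesis through ubiquitination of PCNA and the Fanconi anemia core. The list of 26 genes read here also held the polymerase delta subunits, Primpol and Mad2l2. Of the 26, 2 were lower in shPrmt1 cells, and 2 were higher and 2 lower under MS023. None was called under GSK3368715 by limma or edgeR, with 2 called by DESeq2 and 3 at an unadjusted p under 0.05. The called shares were 7.69%, 15.4% and 0%, beside 14.7%, 27.9% and 9.64% of all genes. Their median log2 fold change was 0.03, 0.00 and -0.00, beside medians within 0.01 of 0 over all genes. Faap20, a ubiquitin-binding subunit of the Fanconi core, fell by 0.63 ± 0.15 (SE, log2) in shPrmt1 cells (adjusted p = 0.024, limma) and by 0.62 ± 0.11 under MS023 (adjusted p = 0.0022, limma). In shPrmt1 cells that call was lost without any 1 of the 3 shControl libraries (-0.63, adjusted p = 0.089 without replicate 3, limma). Pclaf, a PCNA-binding factor, fell by 0.42 in shPrmt1 cells (adjusted p = 0.0037, limma). Under MS023 it was at -0.21 (adjusted p = 0.046, limma), a call that 8 of the 9 libraries each carried (-0.18, adjusted p = 0.15 without MS023 replicate 2, limma). Mad2l2, the second subunit of polymerase zeta, rose by 0.24 under MS023 (adjusted p = 0.013, limma), or 0.20 without vehicle replicate 3 (adjusted p = 0.056, limma). Hltf, a ligase for PCNA, was at 0.21 (adjusted p = 0.038, limma), and at 0.18 without MS023 replicate 3 (adjusted p = 0.14, limma), 1 of 4 libraries whose absence lost the call.

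Other DNA polymerases and primases gave 1 gene higher and 1 lower of 13 tested both in shPrmt1 cells and under MS023, and none under GSK3368715 by limma, edgeR or DESeq2, with 2 at an unadjusted p under 0.05. The called share was 15.4% in shPrmt1 cells and under MS023, beside 14.7% and 27.9% of all genes, so in shPrmt1 cells it was near that of all genes. Prim2, the large primase subunit, rose by 0.45 ± 0.07 in shPrmt1 cells (SE, log2, adjusted p = 0.0045, limma). Polb, the gap-filling enzyme of base excision repair, rose by 0.45 ± 0.07 under MS023 (adjusted p = 0.0010, limma). Polm, an end-joining polymerase, was at -0.55 in shPrmt1 cells (adjusted p = 0.048, limma), a call lost without any 1 of 5 of the 6 libraries (-0.49, adjusted p = 0.17 without shControl replicate 1, limma). Pola1, the catalytic subunit of polymerase alpha, was at -0.19 under MS023 (adjusted p = 0.043, limma), a call lost without any 1 of 8 of the 9 libraries (-0.17, adjusted p = 0.14 without MS023 replicate 3, limma).

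Genes that work beside POLN, HELQ and POLQ in crosslink repair and end joining were lower more often than higher. Of 25, 4 were lower and 1 higher in shPrmt1 cells, 10 lower and 1 higher under MS023, and 5 lower and none higher under GSK3368715. The called shares were 20%, 44% and 20%, beside 14.7%, 27.9% and 9.64% of all genes. Of all genes, 7.17%, 14.1% and 4.47% were called lower. The median log2 fold changes of the list were -0.12, -0.17 and -0.04. The list was chosen with earlier results known, and its called counts ran from 1 to 8, 9 to 13 and 1 to 6 over the alternatives. Rad50, of the complex that senses broken ends, fell by 0.67 ± 0.08 under MS023 (SE, log2, adjusted p = 0.00020, limma) and by 0.44 ± 0.08 under GSK3368715 (adjusted p = 0.0067, limma). In shPrmt1 cells it was at -0.49 (adjusted p = 0.018, limma), with the call lost without shControl replicate 1 (-0.45, adjusted p = 0.084, limma), shControl replicate 3 or shPrmt1 replicate 3.

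Fancd2, the ubiquitinated core of crosslink repair, fell by 0.47 under MS023 (adjusted p = 0.00087, limma). Hus1, of the checkpoint clamp, rose by 0.49 in shPrmt1 cells (adjusted p = 0.0083, limma), and Hmces, a shield for abasic sites named after its value was seen, rose by 0.30 under MS023 (adjusted p = 0.0040, limma). Rad1, another clamp subunit, was at -0.30 under GSK3368715 (adjusted p = 0.021, limma), or -0.27 without GSK3368715 replicate 3 (adjusted p = 0.068, limma), and the call was also lost without vehicle replicate 3. Further calls in shPrmt1 cells and under GSK3368715, named after their values were seen, were Fancd2 at -0.35 and Parp1 at -0.26 in shPrmt1 cells and Mre11a at -0.26 and Xrcc1 at -0.24 under GSK3368715 (log2), each lost without any 1 of 4 to 7 libraries, with adjusted p-values by limma up to 0.16, 0.14, 0.094 and 0.13.

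**Figure D4:**
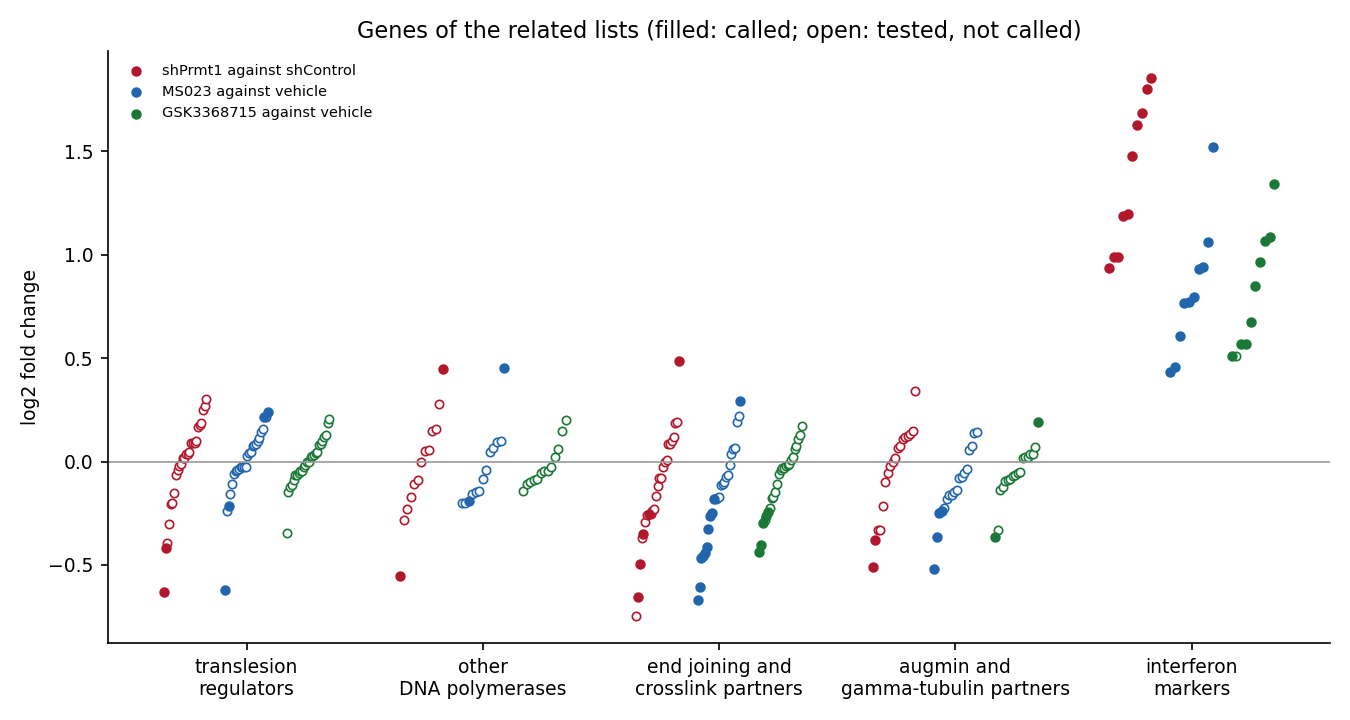
Log2 fold change of each tested gene (points, sorted within a list) in 5 lists for shPrmt1 against shControl and each inhibitor against vehicle, n = 3 libraries per group, filled where called at an adjusted p under 0.05. The 4 lists of replication, repair and spindle genes lie around 0, with most filled points of the end joining and crosslink list below it, while the interferon markers lie above 0.43.

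HAUS3 works with the other augmin subunits and with the gamma-tubulin ring. Of 18 partner genes, 2 were lower in shPrmt1 cells, 4 were lower under MS023, and 1 was lower and 1 higher under GSK3368715. The called shares were 11.1%, 22.2% and 11.1%, near those of all genes, 14.7%, 27.9% and 9.64%. The medians of the list were 0.01, -0.14 and -0.06 (log2). Tubg1, gamma-tubulin itself, fell by 0.52 ± 0.05 under MS023 (SE, log2, adjusted p = 0.00012, limma) and by 0.36 ± 0.05 under GSK3368715 (adjusted p = 0.0032, limma). In shPrmt1 cells it was at -0.38 (adjusted p = 0.039, limma), with the call lost without any 1 of 4 of the 6 libraries (-0.38, adjusted p = 0.13 without shControl replicate 1, limma). The augmin subunit Haus4 was at -0.51 in shPrmt1 cells (adjusted p = 0.015, limma), or -0.46 without shControl replicate 1 (adjusted p = 0.081, limma), and any 1 of the 3 shControl libraries decided its call. Under MS023 Haus4 was at -0.36 (adjusted p = 0.025, limma) and Haus1 at -0.25 (adjusted p = 0.023, limma), and these calls were lost without any 1 of 4 and 3 libraries, with adjusted p-values by limma up to 0.094 and 0.089. Haus7 was at 0.19 under GSK3368715 (adjusted p = 0.038, limma), a call lost without any 1 of 8 of the 9 libraries (0.18, adjusted p = 0.11 without GSK3368715 replicate 1, limma). Tpx2, a spindle assembly factor named after its value was seen, fell by 0.24 under MS023 (adjusted p = 0.0045, limma).

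Proliferation markers were called at 8.33% in shPrmt1 cells, 25% under MS023 and 0% under GSK3368715, beside 14.7%, 27.9% and 9.64% of all genes. Of 12, 1 was lower in shPrmt1 cells, E2f1, an activator of S-phase genes, which fell by 0.73 on the log2 scale (adjusted p = 0.0094, limma). Under MS023 E2f1 fell by 0.32 (adjusted p = 0.0083, limma), Mcm6, a subunit of the replicative helicase, rose by 0.26 (adjusted p = 0.0075, limma) and Mcm3 was at 0.20 (adjusted p = 0.020, limma), or 0.18 without vehicle replicate 3 (adjusted p = 0.073, limma), 1 of 3 libraries whose absence lost the call. Under GSK3368715 the log2 fold changes of the 12 lay between -0.25 and 0.24. The summed level of the 12 was 2920 to 3040 CPM in shControl and 2960 to 3120 in shPrmt1 libraries, and 2610 to 2920 in vehicle, 2850 to 2900 in MS023 and 2890 to 3010 in GSK3368715 libraries, and its part in the results on the repair genes was not tested. In bulk RNA, fewer cells of a kind and less RNA per cell cannot be told apart.

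Around Poln, 25 genes are annotated within 250 kb of either end, of which 15 are in the tables and 6 were tested in the knockdown and 8 in the inhibitor experiment. Of the 25, 4 overlap Poln and were not tested: Gm19798, Gm43459, the antisense 4930557J02Rik and Gm25918. Gm19798, on the strand of Poln, averaged 0.48 normalized counts in shControl, 2.61 in shPrmt1, 0.95 in vehicle, 8.30 in MS023 and 5.12 in GSK3368715 libraries. Mxd4, a MAX-binding repressor whose start lies at -18.3 kb from that of Poln, upstream on the same strand, was the nearest one tested besides Haus3. It went from 151 to 208 normalized counts on average in shPrmt1 cells, without overlap and without passing the test (log2 fold change 0.45 ± 0.14, SE, adjusted p = 0.069, limma). Under MS023 it rose by 0.50 ± 0.12 (adjusted p = 0.012, limma), and without MS023 replicate 3 it was at 0.45 with an adjusted p that rounds to 0.05 and missed the threshold (limma). Under GSK3368715 it was at 0.47 ± 0.12 (adjusted p = 0.036, limma), a call lost without any 1 of 6 of the 9 libraries (0.40, adjusted p = 0.11 without GSK3368715 replicate 2, limma). The inhibitors differed by -0.03 for Mxd4 (adjusted p = 0.94, limma).

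Of the other neighbours, Nsd2, a histone H3 lysine methyltransferase, was at -0.32 under MS023 (adjusted p = 0.029, limma), or -0.31 without MS023 replicate 2 (adjusted p = 0.081, limma), 1 of 5 libraries whose absence lost the call. Rnf4, a SUMO-directed ubiquitin ligase, was at -0.13 under MS023, an adjusted p that rounds to 0.05, and the call was lost without any 1 of the 9 libraries (-0.12, adjusted p = 0.16 without MS023 replicate 2, limma). Letm1, Nelfa and Fam193a were not called in any comparison by limma, and neither were Nat8l and Zfyve28, tested with the inhibitors only, at means of 4.34 to 11.4 normalized counts.

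**Figure D5:**
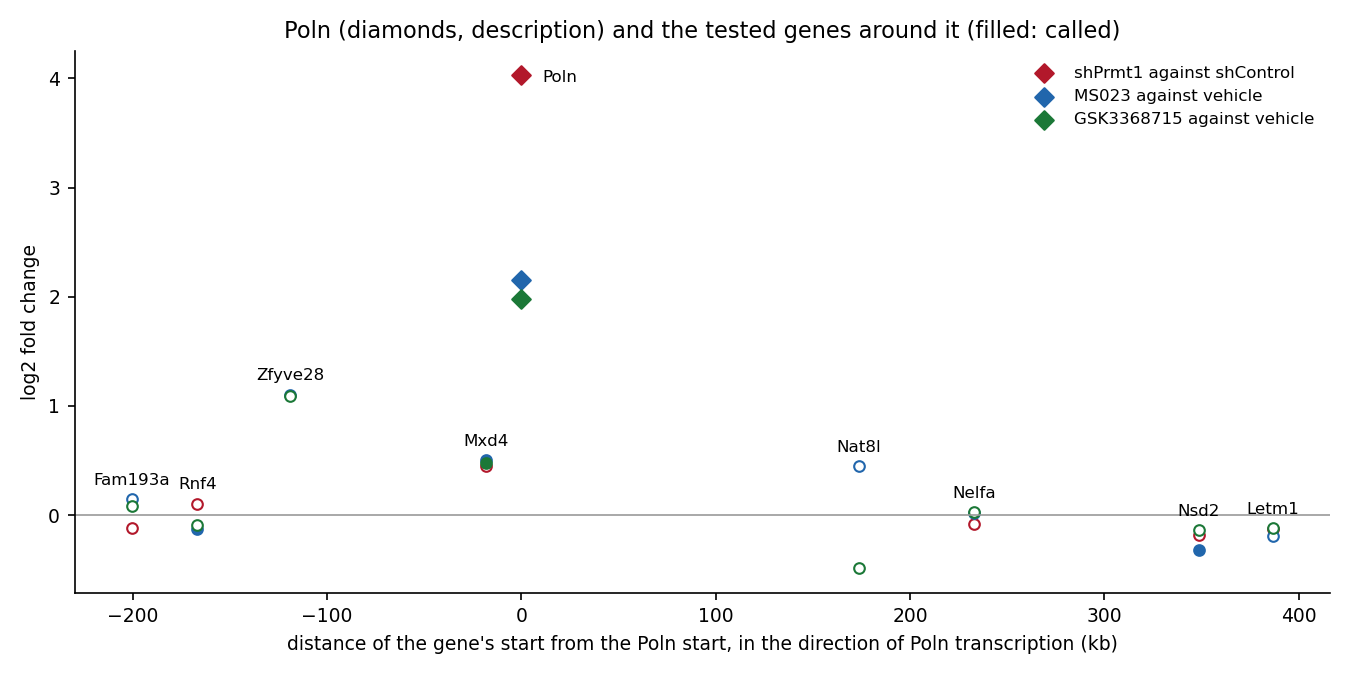
Log2 fold change of Poln (diamonds) and of the tested genes around it (points, filled where called) against the distance of each gene's start from that of Poln, in kb in the direction of Poln transcription, in shPrmt1 against shControl and each inhibitor against vehicle, n = 3 libraries per group. Poln stands at 1.97 to 4.03, Mxd4 at 0.45 to 0.50, and Zfyve28, near 1.10 under both inhibitors, has few reads and was not called.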

How the data were processed

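The libraries were prepared with a poly(A) mRNA kit (Kapa mRNA HyperPrep) and sequenced as paired-end reads. The authors quantified them with Salmon 1.4.0 on mm10 and deposited, for each experiment, a normalized signal, the count of each gene over the DESeq2 size factor of the library. The annotation, the strand setting and the version of DESeq2 are not given in the sources used here. Without a known strand setting, reads of a gene and of one antisense to it cannot be told apart. Reads on genes were recovered from the normalized signal, since 100% of the deposited values were whole multiples, within 0.01 reads, of a constant per library. Here reads mean these whole-number counts as assigned to genes by Salmon. How it divided reads between genes that share sequence is not given. The deposited comparison tables hold means, log2 fold changes, SEs and p-values, and were not used. Counting precision is limited most for Poln in shControl cells, and intervals cover the spread between libraries.

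Genes reaching 10 normalized counts in 3 or more libraries were tested on log2(normalized count + 1) by limma 3.58.1 (lmFit, eBayes with a trend) in R 4.3.3, two-sided, with Benjamini-Hochberg adjustment over all of them, calling an adjusted p under 0.05. The scale understates the changes of low genes. The knockdown was fitted as 3 libraries against 3, and the 9 inhibitor libraries in 1 fit. The other settings tried were pseudocounts of 0.5 and 5, a minimum of 50 or none, rescaling to a common upper quartile or total, no trend, a block for the replicate number, a fit of only the groups compared, Haus3 summed with Poln, edgeR 4.0.16 and DESeq2 1.42.0 on the recovered reads, and each library left out. The fit was tested on simulated data. No library was a copy of another. Gene models came from GENCODE for mm10, and the RefSeq starts of Poln and Haus3 are given beside them.

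The members and lists were chosen with earlier results of these data known. The named genes are the members, Prmt1, for each comparison the 3 called genes of a list with the largest change, the tested neighbours within 250 kb, and the 5 genes most like Poln and 3 most like Haus3, except for items that are not reported here. The likeness was limited to genes that averaged 50 or more normalized counts in the higher group of each experiment. Epithelial, mesenchymal and immune markers are given by level only. The share of Poln in the pair, the levels per kb and the CPM across experiments were added after values had been seen.

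The labels number the replicates in every group without saying what a number shares. Deviations of same-numbered shControl and shPrmt1 libraries from their group means were correlated at 4 minimum levels of expression, which did not give the same answer. With every pair over 0.1 taken as pairing, 2 of the 4 passed, at minimums of 50 (r from 0.12 to 0.324) and 100 (0.116 to 0.373). The others did not, at 20 (0.0753 to 0.157) and at 10, the genes of the fit itself (0.0614 to 0.116). All 4 were run after the number of calls with the block had been seen, or together with it, so pairing was not taken as established and both fits are given. Same-numbered libraries of the inhibitor experiment had r from -0.268 to 0.22 and were not paired.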

Additional observations from a re-analysis of the deposited data

How the results depend on the processing

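Haus3 was called lower under both inhibitors in every alternative run on Haus3 alone, with log2 fold changes of -0.68 to -0.59 under MS023 and -0.60 to -0.48 under GSK3368715 with a library left out. Poli was called lower under MS023 in every alternative run (-0.37 to -0.30). The number of members other than Poln called was 0 in shPrmt1 cells, and 0 to 1 with a library left out, the 1 being Haus3 without shPrmt1 replicate 2. It was 2 under MS023, and 3 without vehicle replicate 2 (Polh), without GSK3368715 replicate 1 and with only the groups compared (Helq in both). It was 1 under GSK3368715, and 2 with no trend in eBayes, where Poli passed (-0.22, adjusted p = 0.049, limma).

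With the replicate number as a block, 2671 genes were called in the knockdown in place of 1684, and still 0 of the 8 members other than Poln. The 4 checks of whether the numbers pair the libraries did not give the same answer, so which of these counts applies is not settled. The block changed no member's call in the inhibitor experiment either, but with it 4 genes in place of 67 were called between the inhibitors. It also lost the calls of Nsd2, Pola1, Pclaf, Fanci and Rnf4 under MS023 and of Mxd4, Haus7, Mre11a and Xrcc1 under GSK3368715. With only the groups compared in the fit, the calls of Hltf, Pclaf, Pola1 and Rnf4 under MS023 were lost. So were those of Rad1, Mxd4, Mre11a, Haus7 and Xrcc1 under GSK3368715, at adjusted p-values of 0.052 to 0.11 (limma).

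Members that were not called changed sign in places, and the cause was not tested. With a library left out in turn, the log2 fold changes in the knockdown ranged from -0.136 to 0.118 for Helq, -0.01 to 0.0846 for Polh, -0.0572 to 0.115 for Polq and -0.132 to 0.178 for Rev3l, and Haus3 summed with Poln was at 0.0987. Under MS023 they ranged from -0.133 to 0.13 for Polq, -0.0931 to 0.0248 for Rev1 and -0.12 to 0.163 for Rev3l, while Polk was at 0.00894 with the same total in every library and Polq at -0.0048 with edgeR and -0.00763 with DESeq2. Under GSK3368715 they ranged from -0.0758 to 0.202 for Helq, -0.0625 to 0.0911 for Polh, -0.0504 to 0.213 for Polq, -0.0344 to 0.0739 for Rev1 and -0.133 to 0.15 for Rev3l, and Polh was at 0.00514 with a common upper quartile and 0.00857 with a common total. Between the inhibitors they ranged from -0.00488 to 0.113 for Rev1 and -0.0488 to 0.0174 for Rev3l.

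Over all genes, the count of 1684 in the knockdown fell to 652, 883 and 723 without shControl replicates 1, 2 and 3 and to 1072 without shPrmt1 replicate 3. That of 3625 for MS023 fell to 2409 without MS023 replicate 2. That of 1254 for GSK3368715 fell to 586 without vehicle replicate 3, 757 and 778 without GSK3368715 replicates 1 and 3, and 597 with only the groups compared. That of 67 between the inhibitors ranged from 2 without MS023 replicate 1 to 377 with DESeq2. The counts of the 4 related lists moved as well, for the end joining and crosslink genes from 5 to between 1 and 8 in the knockdown, from 11 to between 9 and 13 under MS023 and from 5 to between 1 and 6 under GSK3368715. The 5 genes most like Poln were the same with a pseudocount of 0.5 or 5. Over the alternatives the log2 fold change of Poln ranged from 3.68 to 4.15 in the knockdown, 2.05 to 2.22 under MS023 and 1.87 to 2.11 under GSK3368715. Depth limited Poln in shControl cells most, at 12 to 16 reads per library.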
